A study of Saccharomyces cerevisiae with 12 samples.

Results

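The genes described here are TEC1 and 9 other genes of the mating and filamentation MAP kinase pathways of Saccharomyces cerevisiae, 10 of the 6825 identifiers in the expression table. They were chosen by name: the transcription factors TEC1 (YBR083W) and STE12 (YHR084W), the MAP kinases KSS1 (YGR040W) and FUS3 (YBL016W), the filamentation targets FLO11 (YIR019C) and PGU1 (YJR153W), the mating target FUS1 (YCL027W), and the genes STE2 (YFL026W), MFA1 (YDR461W) and MFA2 (YNL145W), which are expressed in cells of mating type a. All 10 were listed above 0 in all 12 samples, with the lowest value at 1.49 TPM (transcript abundance corrected for transcript length and scaled to a common total), and all 10 passed the filter on low values (mean of 1 TPM or more) in each comparison. The 10 genes were chosen with earlier results of these data known. RNA was sequenced from 4 groups of 3 biological replicates. The euc1∆ group was DF5a carrying ymr111c::natNT2 and YIplac211-MED11::URA3, an integrated extra copy of the gene next to EUC1, and the WT group was DF5a with the same plasmid and an intact EUC1, both in mid-log phase in YP medium with glucose. The pGAL-EUC1 group was W303a RAD5 carrying ymr111c::natNT2 and YIplac211-pGAL-EUC1::URA3, with EUC1 under the galactose-inducible promoter, and the control group was W303a RAD5 carrying ymr111c::natNT2 and YIplac211-pEUC1-EUC1::URA3, with EUC1 under its own promoter, so that the chromosomal gene was deleted in both. Both W303 groups were grown in YP-raffinose to an OD of 0.5 and then received 2% galactose for 3 h. EUC1 (YMR111C) encodes a DNA-binding protein that the study placed at sites of chromatin ubiquitylation, and the comparisons ask how expression changes when it is deleted or overproduced.

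In a cells the peptide a-factor is made from MFA1 and MFA2, and the receptor Ste2 binds the pheromone of α cells. The receptor signals through a G protein and a kinase cascade (Ste11, Ste7) to the MAP kinases Fus3 and Kss1, which act on the transcription factor Ste12 and its repressors Dig1 and Dig2. Ste12 alone activates mating genes such as FUS1 from sites called pheromone response elements, whereas filamentation genes such as FLO11, which encodes a cell-surface adhesin, and PGU1, which encodes a secreted pectinase, depend on Ste12 together with Tec1. Fus3 also marks Tec1 for degradation when cells respond to pheromone, and Kss1 acts mainly in filamentation.

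The targeted gene followed its labels: EUC1 had 0, 0 and 0.09 TPM in euc1∆, against 9.56, 15.96 and 13.02 TPM in WT, and 1985, 1942 and 2035 TPM in pGAL-EUC1, against 50.6, 30.8 and 31.6 TPM in the control. The markers of cell type followed theirs. The 7 a-specific genes tested (STE2, MFA1, MFA2, STE6, BAR1, AGA2 and ASG7) summed to between 1009 and 1120 TPM in euc1∆ and between 1180 and 1465 TPM in WT. They summed to between 1450 and 1815 TPM in pGAL-EUC1 and between 1418 and 1624 TPM in the control. The 4 α-specific genes (STE3, MF(ALPHA)1, MF(ALPHA)2 and SAG1) summed to 21.1 to 25.7 TPM in euc1∆, 22.3 to 26.3 TPM in WT, 42.2 to 48.9 TPM in pGAL-EUC1 and 41.4 to 45.0 TPM in the control, and none of the 4 was at 0 in all 3 samples of a group. TPM values keep no record of read number, so the depth behind a value is unknown. WT replicate 1 was the lowest of the 3 WT samples for 9 of the 10 genes, and euc1∆ replicate 2 was the lowest of its group for 8. In bulk samples, fewer cells of a type and less RNA per cell cannot be told apart.

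In overexpressing cells 4 of the 10 genes changed, against 20.4% of all genes tested, so their upstream sequences are shown, from 250 bases before to 50 bases after the first base of the start codon in the R64 genome of RefSeq. Capitals mark TGAAACA, the core of the pheromone response element bound by Ste12, and CATTCT, which with CATTCC was searched for as the Tec1 consensus. Both strands were searched, and the motifs do not overlap. The sequences lie at chrII:408919-409218 for TEC1, chrII:192201-192500 for FUS3, chrVI:82330-82629 for STE2 and chrVIII:273924-274223 for STE12, all on the plus strand. Each of the 10 genes has 1 coding segment, and that of TEC1 runs over chrII:409169-410629, that of FUS3 over chrII:192451-193512, that of STE2 over chrVI:82580-83875 and that of STE12 over chrVIII:274174-276240.
TEC1: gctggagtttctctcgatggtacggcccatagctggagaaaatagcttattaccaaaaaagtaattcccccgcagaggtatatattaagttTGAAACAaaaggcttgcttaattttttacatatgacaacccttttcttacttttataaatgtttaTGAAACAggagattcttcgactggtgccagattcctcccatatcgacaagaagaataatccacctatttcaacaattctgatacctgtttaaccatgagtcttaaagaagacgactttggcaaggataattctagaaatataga
FUS3: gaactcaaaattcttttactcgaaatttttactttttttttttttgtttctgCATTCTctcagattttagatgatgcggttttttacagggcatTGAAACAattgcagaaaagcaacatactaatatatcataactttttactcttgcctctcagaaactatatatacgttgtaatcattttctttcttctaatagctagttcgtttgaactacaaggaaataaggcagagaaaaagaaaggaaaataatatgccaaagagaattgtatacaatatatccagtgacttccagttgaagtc
STE2: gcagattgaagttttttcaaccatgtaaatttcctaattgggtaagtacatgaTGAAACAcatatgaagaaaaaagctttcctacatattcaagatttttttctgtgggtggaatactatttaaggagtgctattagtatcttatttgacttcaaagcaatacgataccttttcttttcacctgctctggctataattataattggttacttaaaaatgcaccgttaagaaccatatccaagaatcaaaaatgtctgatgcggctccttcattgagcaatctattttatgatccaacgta
STE12: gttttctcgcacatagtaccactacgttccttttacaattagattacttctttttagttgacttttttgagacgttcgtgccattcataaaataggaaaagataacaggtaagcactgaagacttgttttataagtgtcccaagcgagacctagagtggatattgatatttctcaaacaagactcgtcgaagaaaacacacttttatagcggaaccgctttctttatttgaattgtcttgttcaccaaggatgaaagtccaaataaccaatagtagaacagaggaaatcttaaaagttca
TGAAACA was found in 5 of the 10 upstream windows, with 2 matches each at TEC1 and FUS1 and 1 each at FUS3, STE2 and MFA2, and in 450 of 6026 such windows of the genome (7.468%). CATTCC was found in none of the 10, against 10.903% of all windows, and CATTCT in 2 of the 10, once at FUS3 and 2 times at PGU1, against 19.15%. FUS3 was the single member with a match to both factors' motifs, which 2.406% of all windows hold. The windows of STE12, KSS1, FLO11 and MFA1 held none of these letters. These matches describe the sequence only.

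Before the comparisons, the levels of the genes show their order within a cell population. MFA2 was the highest of the 10 in every group, with means of 571 TPM in euc1∆, 706 TPM in WT, 802 TPM in pGAL-EUC1 and 800 TPM in the control. MFA1 and STE2 followed, and the ranges of these neighbours overlapped in every group except the control. FLO11 was the lowest of the 10 in every group, with means between 2.27 and 3.20 TPM, and FUS1 was next, with means between 3.33 and 5.77 TPM. The order of the middle genes differed between the experiments. In euc1∆ and WT it ran FUS3, STE12, KSS1, TEC1, PGU1. In pGAL-EUC1 and control cells it ran FUS3, TEC1, KSS1, STE12, PGU1, and the ranges of the 3 samples of each neighbouring pair in this stretch did not overlap. In WT the ranges of FUS3 and STE12 overlapped, and so did those of KSS1 and TEC1. The genes also differed in how far replicates lay apart. The pooled within-group SD of MFA1 was 0.29 on the log2 scale, larger than that of each of the 200 genes nearest to it in level, and that of TEC1 was 0.21, at the 94th percentile of its 200 nearest genes. KSS1 and FLO11 varied least for their level, both at the 23rd percentile. FLO11 holds repeats, and 880 of its 4030 windows of 75 bases (21.84%) occur more than once within the gene but nowhere else in the genome. MFA1 and MFA2 are short, with coding sequences of 111 and 117 bp, which hold 37 and 43 windows of 75 bases. As TPM is corrected for length, their rank against the longer genes is less certain.

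**Figure D1:**
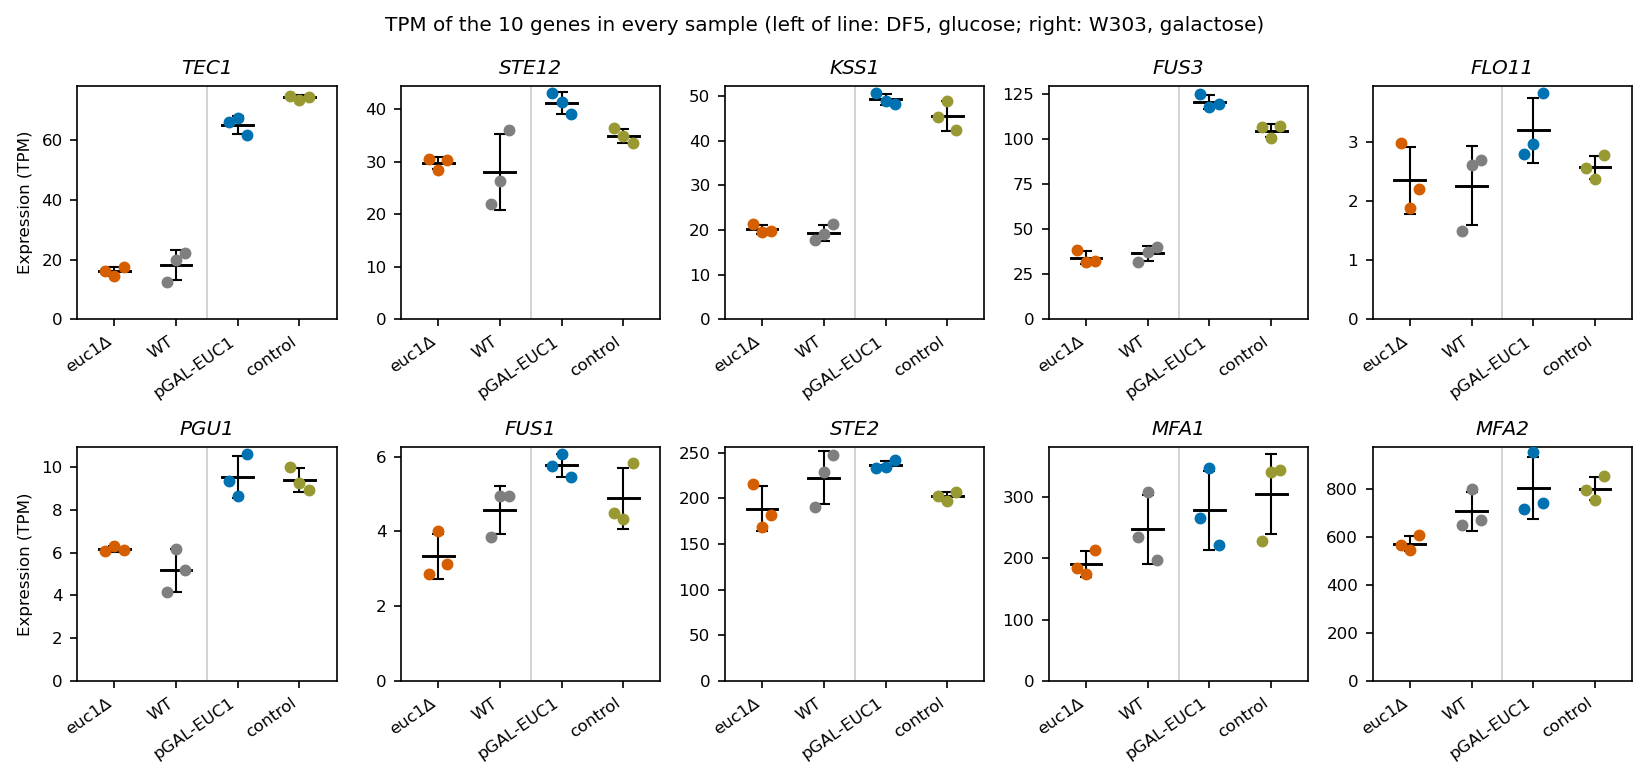
Expression (TPM, linear axis from 0) of the 10 genes in each of the 12 samples, with the mean and SD (n = 3) of euc1∆, WT, pGAL-EUC1 and control as bars. TEC1, KSS1 and FUS3 stand far higher in the W303 groups than in the DF5 groups, STE2 and MFA2 do not, and the 3 TEC1 points of pGAL-EUC1 lie below those of the control.

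The overexpression of EUC1 changed 4 of the 10 genes: STE12, FUS3 and STE2 rose and TEC1 fell in pGAL-EUC1 relative to control cells, with ratios of mean TPM of 1.18, 1.15, 1.17 and 0.875. Of all 6332 genes tested, 20.4% changed (1014 or 16.0% higher, 280 or 4.42% lower, and 288 higher and 526 lower once values were rescaled by the median of ratios), so the count by itself is no result about these genes. The study had already named TEC1 as deregulated by EUC1 overexpression in this experiment, so its call here is no independent support. TEC1, the transcription factor of filamentation, had 66.1, 67.6 and 61.8 TPM in pGAL-EUC1, against 74.99, 73.67 and 74.71 TPM in the control. All 3 pGAL-EUC1 samples lay below all 3 control samples, which were close together. The log2 fold change was -0.19 (limma, SE 0.05, adjusted p = 0.0446), while the median of all genes was 0.08. STE12, its partner, had 43.2, 41.5 and 39.0 TPM in pGAL-EUC1, against 36.4, 34.9 and 33.7 TPM in the control. The groups did not overlap, and the log2 fold change was 0.23 (limma, SE 0.06, adjusted p = 0.0437).

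The MAP kinase gene FUS3 had 125, 118 and 119 TPM in pGAL-EUC1, against 107, 101 and 107 TPM in the control. Again every overexpressing sample was above every control sample, with a log2 fold change of 0.20 (limma, SE 0.04, adjusted p = 0.0343). The other MAP kinase gene, KSS1, had 50.6, 48.9 and 48.2 TPM in pGAL-EUC1, against 45.2, 48.9 and 42.3 TPM in the control. Here control replicate 2 reached into the range of the overexpressing samples, and KSS1 did not pass the test (log2 fold change 0.11, 95% interval -0.02 to 0.25, adjusted p = 0.231, limma). STE2, the receptor gene, had 233, 235 and 242 TPM in pGAL-EUC1, against 203, 197 and 207 TPM in the control. Its groups were well apart for their spread, and it had the lowest adjusted p of the 10 genes (log2 fold change 0.23, SE 0.04, adjusted p = 0.0181, limma).

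The targets and pheromone genes did not pass the test in overexpressing cells. FLO11 had 2.80, 2.97 and 3.84 TPM in pGAL-EUC1, against 2.57, 2.38 and 2.78 TPM in the control. The groups did not overlap, yet they touched closely and the log2 fold change of 0.23 had an SE of 0.21 (adjusted p = 0.485, limma). PGU1 had 9.34, 8.65 and 10.6 TPM in pGAL-EUC1, against 10.01, 9.26 and 8.91 TPM in the control, and FUS1 had 5.75, 6.08 and 5.47 TPM in pGAL-EUC1, against 4.50, 4.32 and 5.83 TPM in the control. For both the groups overlapped, with adjusted p-values of 0.927 and 0.367 (limma). MFA1 ranged from 221 to 348 TPM in pGAL-EUC1 and from 229 to 345 TPM in the control, and MFA2 from 714 to 950 TPM in pGAL-EUC1 and from 753 to 852 TPM in the control. These wide ranges overlapped, and the adjusted p-values were 0.676 for MFA1 and 0.969 for MFA2 (limma). In all, the groups did not overlap for 5 of the 10 genes (4 higher, 1 lower), against 37.0% of all genes.

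STE2 kept its call in each alternative except a joint fit of all 12 samples (adjusted p = 0.288, limma), in which none of the 10 passed. The other calls were lost in some alternatives, mostly with folds of similar size. Without control replicate 2 or without pGAL-EUC1 replicate 1 STE2 alone was called (adjusted p of TEC1 0.104 and 0.131, limma), and without pGAL-EUC1 replicate 3 that of TEC1 was 0.117. Leaving out single samples kept the log2 fold changes between -0.22 and -0.15 for TEC1, 0.20 and 0.27 for STE12, and 0.17 and 0.22 for FUS3. With values rescaled by the median of ratios TEC1 was still called, at -0.26, whereas STE12 was at 0.16 and FUS3 at 0.13 (adjusted p = 0.121 and 0.116, limma), and STE12 was also lost after a correction for coding length (0.14, adjusted p = 0.134, limma). The smallest two-sided exact permutation p for 3 samples against 3 is 0.1, which STE12, FUS3, STE2, TEC1 and FLO11 each reached.

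**Figure D2:**
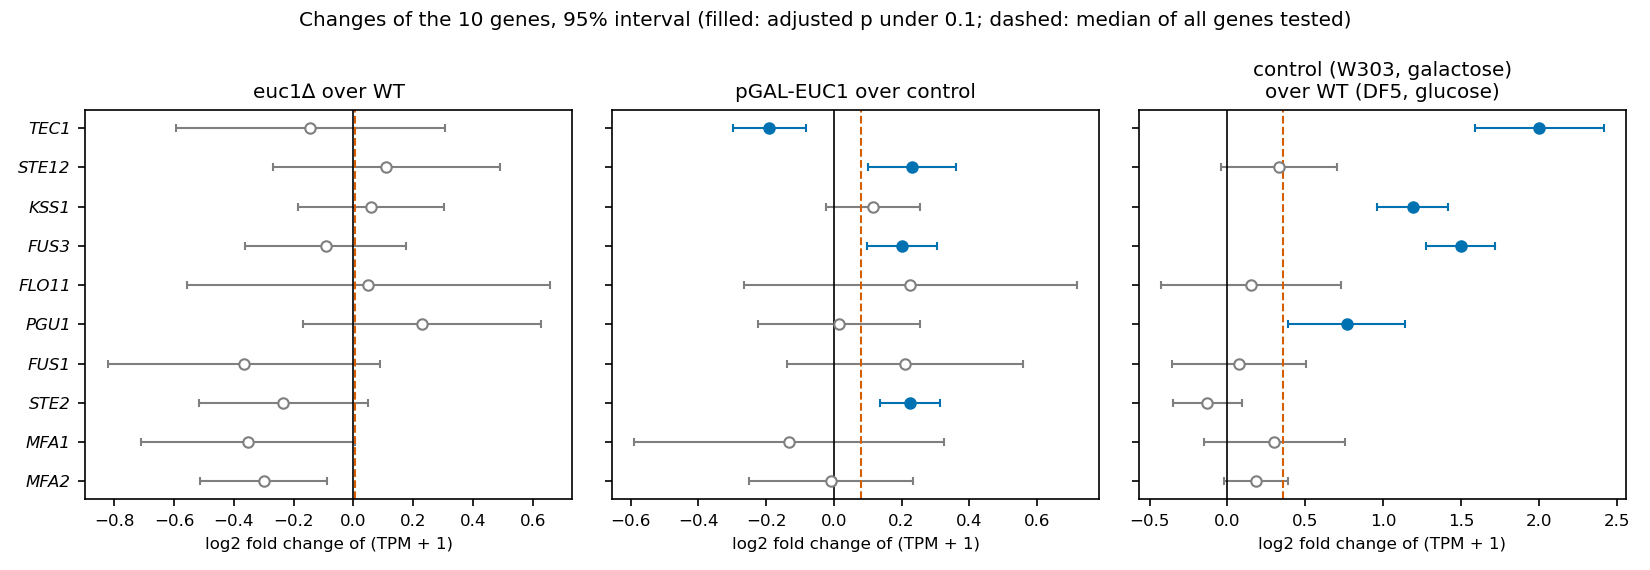
Log2 fold change of (TPM + 1) with its 95% interval (limma) for each gene in 3 comparisons, filled where the adjusted p was under 0.1, with the median of all genes tested as a dashed line. In overexpressing cells TEC1 lies left of 0 and STE12, FUS3 and STE2 right of it, in euc1∆ no gene is filled, and between the control strains TEC1, FUS3, KSS1 and PGU1 are.

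By limma at an adjusted p under 0.1, the deletion of EUC1 changed none of the 10 genes, and 2 of all 6217 genes tested (0.0322%). EUC1 itself was among the genes tested. The study's own test, on counts and at a different threshold, gave many more changed genes in euc1∆ from these samples. At an unadjusted p under 0.05 the count was 1 of 10, against 7.54% of all genes. This gene was MFA2, which had 563, 544 and 605 TPM in euc1∆, against 648, 799 and 670 TPM in WT. All 3 euc1∆ samples were below all 3 WT samples, with a log2 fold change of -0.30 (limma, SE 0.09, adjusted p = 0.510), and MFA2 was the single member without overlap, against 13.1% of all genes. MFA1 had 185, 174 and 214 TPM in euc1∆, against 236, 308 and 198 TPM in WT. Here WT replicate 3 lay within the euc1∆ range (log2 fold change -0.35, 95% interval -0.71 to 0.01, adjusted p = 0.656, limma). The receptor gene STE2 had 216, 168 and 182 TPM in euc1∆, against 191, 229 and 248 TPM in WT, and the groups overlapped (log2 fold change -0.24, 95% interval -0.52 to 0.05, adjusted p = 0.712, limma).

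TEC1 had 16.2, 14.6 and 17.5 TPM in euc1∆, against 12.68, 20.03 and 22.19 TPM in WT. The WT samples spread on both sides of the euc1∆ samples, so that the 95% interval of the log2 fold change ran from -0.59 to 0.31 around -0.14 (adjusted p = 0.919, limma). Without WT replicate 3 the TEC1 value was 0.01. STE12 had 30.6, 28.5 and 30.4 TPM in euc1∆, against 21.96, 26.30 and 36.11 TPM in WT, again with the WT samples on both sides. FUS3 had 38.2, 32.0 and 32.5 TPM in euc1∆, against 32.0, 37.5 and 40.4 TPM in WT, and KSS1 had 21.4, 19.5 and 19.8 TPM in euc1∆, against 17.8, 19.1 and 21.3 TPM in WT. Both kinase genes overlapped between the groups, with 95% intervals from -0.36 to 0.18 for FUS3 and from -0.19 to 0.30 for KSS1. Among the targets, FUS1 had 2.85, 4.01 and 3.13 TPM in euc1∆, against 3.84, 4.94 and 4.95 TPM in WT. A single euc1∆ sample, replicate 2, reached the WT range (log2 fold change -0.37, SE 0.20, adjusted p = 0.713, limma). PGU1 was even in euc1∆, between 6.07 and 6.31 TPM, and ranged from 4.15 to 6.16 TPM in WT, and FLO11 ranged from 1.88 to 2.99 TPM in euc1∆ and from 1.49 to 2.70 TPM in WT. Neither gene passed the test (adjusted p = 0.841 and 0.995, limma). Across the alternatives run, none of the 10 genes was called in the deletion.

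Whether the 2 changes differ was tested directly, as the overexpression log2 fold change minus the deletion log2 fold change. None of the 10 genes was called, against 2.26% of all 6325 genes. Before adjustment p was under 0.05 for 3 of them, against 15.1% of all genes. STE2 stood farthest from 0 for its error, with a difference of 0.46 (limma, SE 0.14, adjusted p = 0.146): its level was higher in pGAL-EUC1 than in control and the euc1∆ mean was below that of WT. FUS1 differed by 0.58 (limma, SE 0.23, adjusted p = 0.257) and FUS3 by 0.29 (limma, SE 0.13, adjusted p = 0.293). For TEC1 the difference was -0.05 (95% interval -0.52 to 0.43, adjusted p = 0.962, limma). The STE2 difference was called without WT replicate 1 (0.57, adjusted p = 0.0425), without euc1∆ replicate 1 (0.56, adjusted p = 0.0444) and after rescaling (0.38, adjusted p = 0.0860), and FUS3 without WT replicate 1 (0.39, adjusted p = 0.0826, limma).

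The largest differences among the 4 groups lay between the experiments, for 4 of the genes. TEC1 was 4.07-fold higher in control than in WT cells, by the ratio of mean TPM (74.5 ± 0.7 TPM in control and 18.3 ± 5.0 TPM in WT, SD, n = 3 each). FUS3 was 2.86-fold, KSS1 2.35-fold and PGU1 1.82-fold higher in control. For these 4 genes each control sample was above each WT sample, as for 71.6% of all genes in either direction. The log2 fold changes of (TPM + 1) were 2.00 for TEC1 (SE 0.18), 1.498 for FUS3 (SE 0.10), 1.19 for KSS1 (SE 0.10) and 0.77 for PGU1 (SE 0.16), with adjusted p-values from 3.22e-06 to 0.00351 (limma). Strain background, medium, the EUC1 locus and the experiment all differ between these groups and cannot be told apart, and 71.1% of all 6324 genes passed this test (57.8% higher, 13.3% lower), so 4 of 10 is below the background share. This split of all genes, 3654 higher and 840 lower, held for TPM as deposited, and it was 2204 higher and 2147 lower after rescaling by the median of ratios and 1715 higher and 2712 lower after the correction for coding length. The median of all genes was 0.36, and relative to it TEC1, FUS3 and KSS1 remained higher: with values rescaled by the median of ratios their log2 fold changes were 1.64, 1.13 and 0.83. PGU1 was at 0.44 after rescaling, and at 0.24 after a correction for coding length, where it was no longer called (adjusted p = 0.105, limma).

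The other 6 genes differed less between the control strains. STE12 averaged 34.97 ± 1.38 TPM in control and 28.1 ± 7.2 TPM in WT, FLO11 2.58 ± 0.20 TPM in control and 2.27 ± 0.67 TPM in WT, and FUS1 4.88 ± 0.83 TPM in control and 4.58 ± 0.64 TPM in WT (SD, n = 3 each). STE2 averaged 202 ± 5 TPM in control and 222 ± 29 TPM in WT, MFA1 305 ± 66 TPM in control and 247 ± 56 TPM in WT, and MFA2 800 ± 49 TPM in control and 706 ± 82 TPM in WT (SD, n = 3 each). In each of these the groups overlapped, and the adjusted p-values lay between 0.1004 and 0.737 (limma). The sign of several depended on the scaling: STE12, FLO11, FUS1, MFA1 and MFA2 were above 0 as deposited and below 0 after rescaling. STE2 was called lower after rescaling (log2 fold change -0.50, adjusted p = 0.000358, limma), after the correction for coding length and without WT replicate 1. Without WT replicate 3 STE12 was called higher, without WT replicate 2 MFA1 and MFA2 were, and without control replicate 1 MFA1 was. STE12 was also called higher in the joint fit, MFA2 with a pseudocount of 5, and both with a mean of at least 10 TPM.

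Ratios within a sample do not depend on scaling. The TEC1/STE12 ratio was 1.58 ± 0.05 in pGAL-EUC1 and 2.13 ± 0.08 in control cells (SD, n = 3 each), from 1.53 to 1.63 in pGAL-EUC1 and from 2.06 to 2.22 in control, far apart. In the DF5 cells it was 0.538 ± 0.033 in euc1∆ and 0.651 ± 0.097 in WT, from 0.512 to 0.575 in euc1∆ and from 0.577 to 0.762 in WT, which only just failed to overlap. So the ratio exceeded 1 in each W303 sample and in no DF5 sample. The ratio of the MAP kinases, FUS3/KSS1, was 2.45 ± 0.04 in pGAL-EUC1 and 2.31 ± 0.24 in control, where the ranges overlapped, and 1.69 ± 0.08 in euc1∆ and 1.89 ± 0.08 in WT, where they did not (SD, n = 3 each). The MFA2/MFA1 ratio was 2.92 ± 0.37 in pGAL-EUC1 and 2.72 ± 0.67 in control, and 3.00 ± 0.16 in euc1∆ and 2.91 ± 0.42 in WT (SD, n = 3 each). It was variable within groups, and the ranges overlapped in each comparison. The ratios were chosen after the values had been seen, and 9 comparisons of them were made, of which 5 did not overlap. These were all 3 of TEC1/STE12, and FUS3/KSS1 in the deletion and between the control strains, and each had the smallest exact two-sided permutation p of 0.1 (0.18 after Benjamini-Hochberg adjustment).

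**Figure D3:**
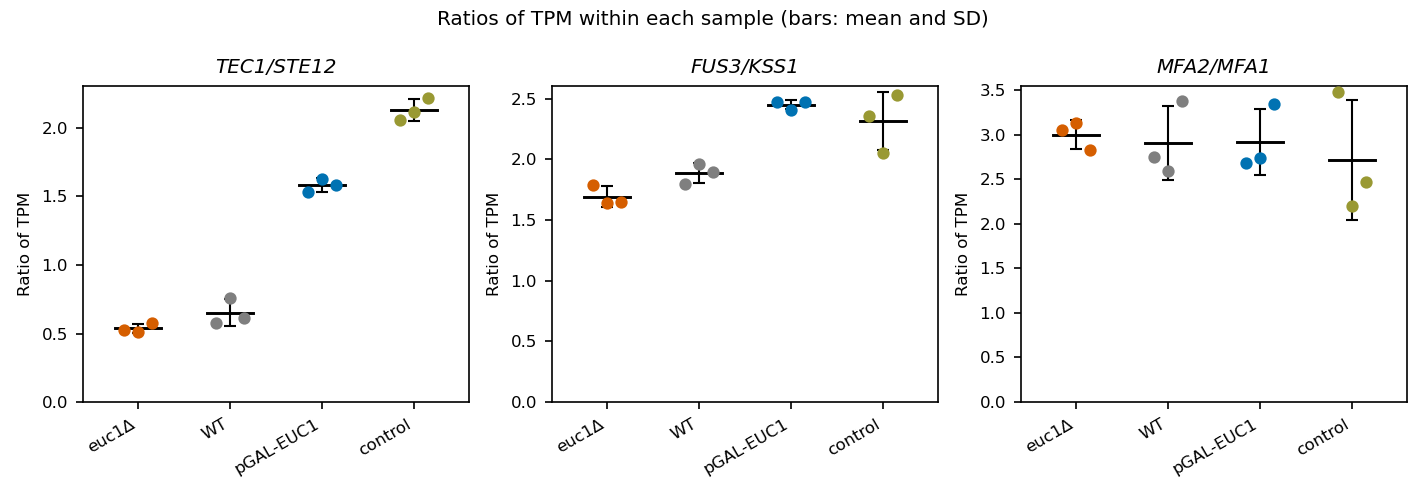
Ratios of TPM within each sample for TEC1/STE12, FUS3/KSS1 and MFA2/MFA1, with the mean and SD (n = 3) of euc1∆, WT, pGAL-EUC1 and control as bars on axes from 0. The TEC1/STE12 points of pGAL-EUC1 (1.53 to 1.63) lie below those of control (2.06 to 2.22), and MFA2/MFA1 shows no separation.

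The rest of the pathway was described with lists of other genes. Among 20 signalling genes, 4 rose and 1 fell in overexpressing cells, with a median log2 fold change of 0.10 against 0.08 for all genes, where 16.0% of all genes were higher and 4.42% lower, so this count is near the background. DIG1, which encodes a repressor of Ste12, fell: it had 61.9, 62.1 and 62.8 TPM in pGAL-EUC1, against 79.5, 75.9 and 74.0 TPM in the control (log2 fold change -0.29, adjusted p = 0.0107, limma). The samples of each group were close together and the groups were apart. STE5, which encodes the scaffold of the mating cascade, was at 0.22, OPY2, which encodes a membrane anchor of Ste50, at 0.21, MSB2, which encodes a mucin that signals in filamentation, at 0.19, and MSG5, which encodes a phosphatase of Fus3, at 0.16. After rescaling none of these 4 was called, whereas DIG1 was (-0.36, adjusted p = 0.00307, limma). STE5 kept its call in 8 of 15 alternatives and OPY2, MSB2 and MSG5 in 6 of 15 each. All 4 were also lost on leaving out certain single samples, whereas DIG1 kept its call in 14 of 15.

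Of 16 mating output genes 14 were tested, and 3 rose and 1 fell in pGAL-EUC1, against the same shares of all genes. PRM1, which acts in the fusion of mating cells, rose with a log2 fold change of 0.52, AGA1, which encodes the anchor of the a-agglutinin, with 0.44, and PRM3, which acts in the fusion of nuclei, with 0.32, while PRM4 fell by 0.29 on the log2 scale. PRM1 had 9.96, 8.93 and 7.86 TPM in pGAL-EUC1, against 5.64, 6.41 and 5.59 TPM in the control, without overlap. The 4 further a-specific genes were all higher, against 16.0% of all genes, whereas the a-specific MFA1 (log2 fold change -0.13) and MFA2 (-0.01) did not pass the test. AGA2, the binding subunit of the a-agglutinin, had 164, 171 and 135 TPM in pGAL-EUC1, against 97.9, 86.6 and 124 TPM in the control (log2 fold change 0.61, adjusted p = 0.0353, limma). ASG7 was at 0.62, BAR1, which encodes the protease that degrades α-factor, at 0.25 and STE6, which encodes the exporter of a-factor, at 0.16. After rescaling, where 288 of all 6332 genes were higher, AGA2 and BAR1 were still called and ASG7 and STE6 were not. Without pGAL-EUC1 replicate 1 BAR1 alone was left. ASG7 kept its call in 7 of 14 alternatives and STE6 in 5 of 15, against 13 of 15 for AGA2 and 14 of 15 for BAR1. Among 13 filamentation genes SOK2, which encodes a regulator of pseudohyphal growth, rose (log2 fold change 0.17) and SVS1 fell (-0.16). Of all genes 16.0% were higher and 4.42% lower. The list median was 0.07, against 0.08 for all genes, so these calls are near the background. SOK2 kept its call in 6 of 15 alternatives and was not called after rescaling. Without pGAL-EUC1 replicate 1, PRM1, PRM4 and SVS1 were not called either. In the joint fit of all 12 samples no gene of the 4 lists was called. None of the 4 α-specific genes was called. In the deletion no gene of these lists was called, and p before adjustment was under 0.05 for 1 of 20 signalling and 2 of 13 mating output genes, against 7.54% of all genes (limma). PRM3 was called higher in euc1∆ than in WT in the joint fit and after the correction for coding length, an exception named after its values were seen.

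Between the control strains, 10 of 13 filamentation genes were higher in control than in WT cells and none was lower, against 57.8% and 13.3% of all genes, with a median log2 fold change of 0.76 against 0.36, for TPM as deposited. After rescaling 9 were higher and 2 lower, beside 2204 higher and 2147 lower of all 6324 genes. After the length correction 8 were higher and 3 lower, beside 1715 higher and 2712 lower of all 5743 genes. NRG1, which encodes a glucose-responsive repressor, had 57.1, 61.1 and 53.6 TPM in control, against 7.95, 9.62 and 11.8 TPM in WT. As the filamentation list includes this repressor, its counts and median give no single direction for filamentation. CLN1, which encodes a G1 cyclin, had 86.8, 86.9 and 82.7 TPM in control, against 25.2, 31.7 and 31.1 TPM in WT. Both were far apart between the groups. FLO10, YLR042C and SVS1 had log2 fold changes of 1.53, 1.45 and 1.17. Of the signalling genes 14 of 20 were higher and 1 lower as deposited, against the same 57.8% and 13.3% of all genes. They were 7 higher and 5 lower after rescaling, and 4 higher and 8 lower after the length correction. Beside the counts of all genes given above, these counts are no result about the signalling genes. FAR1, whose product halts the cell cycle in response to pheromone, was at 1.61, MSB2 at 1.52, and SST2, whose product turns off the G protein, had 13.4, 10.7 and 12.9 TPM in control, against 22.7, 29.6 and 38.2 TPM in WT (log2 fold change -1.20, adjusted p = 0.000523, limma). Of 14 mating output genes 7 were higher and 1, PRM9, lower as deposited, again beside 57.8% and 13.3% of all genes. They were 4 higher and 4 lower after rescaling, and 4 higher and 6 lower after the length correction. These counts, too, are near those of all genes and no result about the list. PRM8 is among the genes counted as higher in each setting. It was listed at 0 in all 6 DF5 samples and between 44.55 and 51.1 TPM in the 6 W303 samples, so no fold is given. PRM8 passed the filter on low values only through the control samples, so its call is no result. PRM5 had 187, 189 and 204 TPM in control, against 16.73, 23.52 and 24.99 TPM in WT. The 4 α-specific genes were also called higher in control as deposited, against 57.8% of all genes, at the low summed levels given above. Of these, MF(ALPHA)1 had 0.49, 0 and 0.28 TPM in WT and passed the filter only through the control samples, so its call is no result. Results for the α-specific genes after rescaling are not given here.

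**Figure D4:**
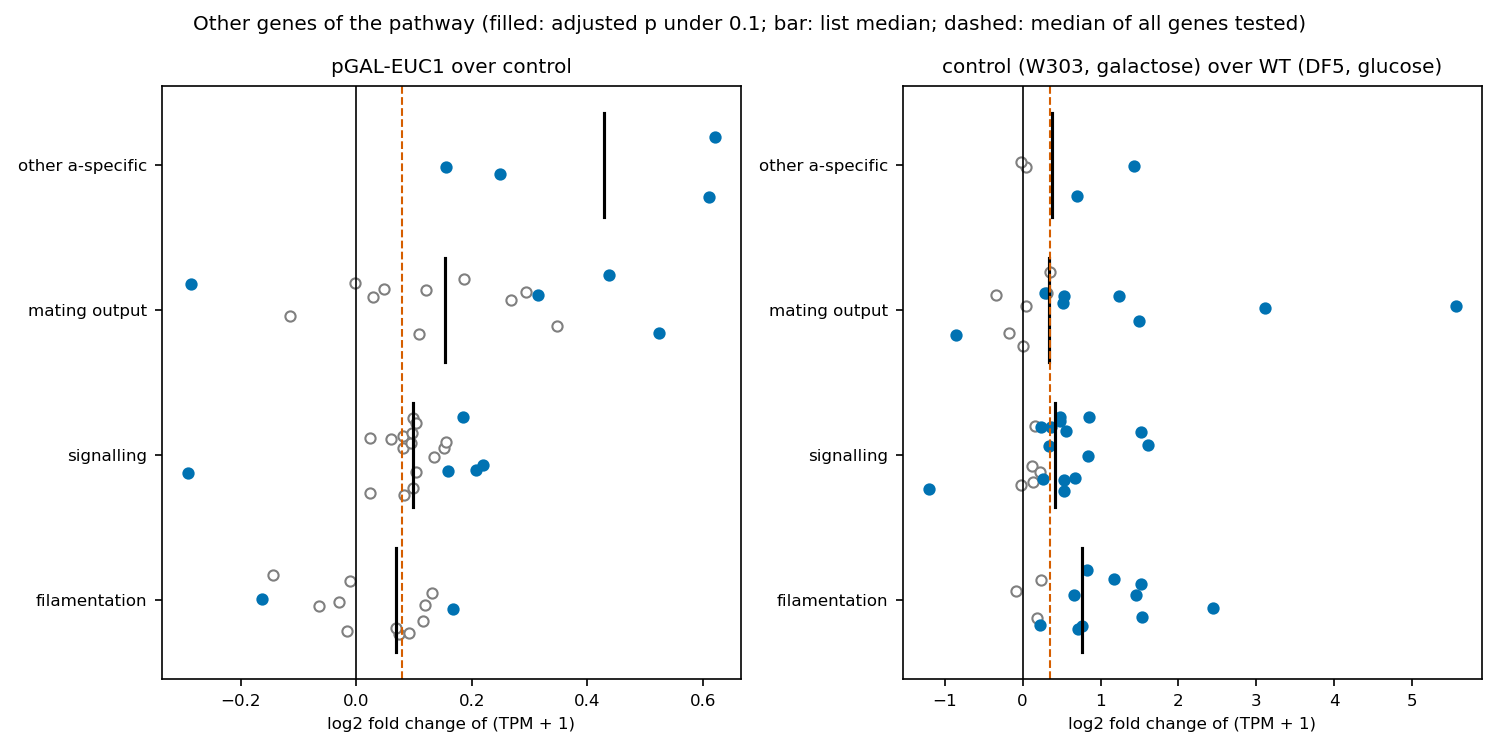
Log2 fold change of (TPM + 1) of other pathway genes, 1 point a gene, in overexpressing cells (left) and between the control strains (right), filled where the adjusted p was under 0.1 (limma), with list medians as bars and the median of all genes as a dashed line. In overexpressing cells the 4 further a-specific genes are all filled and right of 0. Between the control strains the median of the filamentation genes lies right of the dashed line. That list includes the repressor NRG1, so its median gives no single direction for filamentation. The filled points on the right include PRM8, which was at 0 TPM in all WT samples and passed the filter only through control.

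The genes whose pattern was most like that of TEC1 were sought over the 12 samples, on log2(TPM + 1) with the mean of each experiment subtracted, among 5499 other genes that averaged 10 TPM or more. They were MRPL6 (Pearson r = 0.94), PRM5 (0.92), STF1 (0.91), HAP4 (0.90) and CPR3 (0.89). These correlations describe differences within each experiment, between groups and between replicates, and no test was made of them. MRPL6 averaged 131 TPM in pGAL-EUC1 and 144 TPM in the control, PRM5 178 TPM in pGAL-EUC1 and 193 TPM in the control, STF1 381 TPM in pGAL-EUC1 and 403 TPM in the control, and HAP4 163 TPM in pGAL-EUC1 and 169.5 TPM in the control. CPR3 hardly differed in these means, at 280.3 TPM in pGAL-EUC1 and 281 TPM in the control. In euc1∆ and WT the means were 51.8 and 53.0 TPM for MRPL6, and 18.2 and 21.7 TPM for PRM5. They were 44.0 and 51.2 TPM for STF1, 14.0 and 14.2 TPM for HAP4, and 165.7 and 167.5 TPM for CPR3. The SD of TEC1 was 27.2% of its mean in WT, 9.2% in euc1∆, 4.6% in pGAL-EUC1 and 0.9% in control. Differences among the WT replicates therefore weigh heavily in these correlations. Of the 6 other members at this level, MFA2 (0.44), STE12 (0.44) and STE2 (0.42) had the highest r with TEC1, at ranks 1253, 1297 and 1422 of 5499, and FLO11, PGU1 and FUS1 averaged too low to be compared.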

How the data were processed

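Single-end sequencing of polyA RNA from the 12 samples gave 75-bp reads. With STAR 2.6.0a (ENSEMBL R64-1-1) and RSEM 1.3.0 the authors made the TPM values that they deposited, a unit scaled by transcript length and to a common total, so that a rise of many genes lowers others. Whether reads were assigned by strand is not given in the sources used here. Column names stand 1 cell off their values in the table, and the levels of EUC1 fit the columns as read. Of 6825 identifiers 5903 matched an R64 locus tag, and overlaps with the other genes were not checked. No coding overlap was found for the 10 genes.

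Groups were taken from the sample titles. Log2(TPM + 1) was modelled with limma 3.58.1 under R 4.3.3 separately for each comparison, with eBayes and a variance trend over expression, and genes averaging below 1 TPM in its samples were left out. The pseudocount makes the fold change of low genes smaller. Two-sided p-values received the Benjamini-Hochberg adjustment across every gene tested, and a gene was called at an adjusted p under 0.1, the level at which the study extracted its results. The count of changed genes that the study gave for euc1∆ used another threshold. The difference between the 2 changes was fitted over all 12 samples. Single values were also compared by exact permutation of 3 against 3 samples (20 assignments). The study tested counts, which were not used here. The procedure was tested on simulated data. Tables and plots were made in Python 3.11.15 (pandas 2.3.3, numpy 2.4.6, matplotlib 3.10.9).

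The 10 genes and the lists (20 signalling, 16 mating output, 13 filamentation, 4 further a-specific and 4 α-specific genes) were chosen with earlier results of these data known. FLO8 (YER109C) was also planned for the filamentation list but is not among the identifiers measured. The filamentation list includes the repressor NRG1, so its counts give no single direction for filamentation. Named were the 10 genes, up to 5 called genes of a list and comparison with the largest change, and the 5 genes most like TEC1. The α-specific genes served as markers. Alternatives were leaving out each sample, a correction for coding length, a block on replicate number, a joint fit, no trend, median-of-ratios rescaling, a minimum of 10 TPM or none, and pseudocounts of 0.1 and 5.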

Additional observations from a re-analysis of the deposited data

How the results depend on the processing

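In the deletion the count of 2 genes called out of 6217 was 1 with a pseudocount of 0.1 or 5, 0 with a mean of at least 10 TPM, 4 after rescaling by the median of ratios, 101 in the joint fit of 12 samples, 15 after the correction for coding length, and 1 to 3 without a single sample. In overexpressing cells 1294 genes were called (1014 higher, 280 lower), against 814 after rescaling (288 higher, 526 lower), 163 in the joint fit, and 263 to 1081 without a single sample (263 without pGAL-EUC1 replicate 1, 571 without pGAL-EUC1 replicate 3 and 605 without control replicate 2). Between the control strains the 4494 calls (3654 higher, 840 lower) were 4048 to 4598 without a single sample, and their split was 2204 higher and 2147 lower after rescaling and 1715 higher and 2712 lower after the length correction. For the difference of the 2 changes, 143 genes were called, against 87 without the trend and 35 to 443 without a single sample. The cause of these shifts was not tested.

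The shared replicate numbers did not pair the samples: the correlation of deviations of same-numbered samples lay between -0.11 and 0.19 in the 3 comparisons, and 3, 2 and 0 of 6 samples correlated best with their own number in the deletion, the overexpression and the control strains. With the replicate number as a block, 1 gene was called in the deletion and 17 for the difference of the changes, the 4 calls of members in overexpressing cells were made again, and MFA1 and STE12 were called in addition between the control strains.

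Signs turned mostly for genes that were not called. After the correction for coding length FLO11 in the deletion was at -0.058 and PGU1 in overexpressing cells at -0.053, while rescaling put PGU1 at -0.052. Between the control strains rescaling gave -0.030 for STE12, -0.11 for FLO11, -0.23 for FUS1, -0.072 for MFA1 and -0.19 for MFA2. In the same order the correction for length gave -0.16, -0.31, -0.43, -0.32 and -0.43, with FUS1 and MFA2 then called lower. STE2 kept its sign and was also called lower after the length correction. KSS1 in the difference of the changes was at -0.029 after rescaling. Without a single sample the log2 values ran from -0.37 to 0.0064 for TEC1, -0.047 to 0.30 for STE12 and -0.13 to 0.15 for FLO11 in the deletion. They ran from -0.056 to 0.076 for PGU1, -0.33 to 0.021 for MFA1 and -0.14 to 0.070 for MFA2 in overexpressing cells, and from -0.033 to 0.25 for FLO11 and -0.037 to 0.14 for FUS1 between the control strains. For the difference of the changes they ran from -0.20 to 0.18 for TEC1, -0.068 to 0.28 for STE12 and -0.012 to 0.11 for KSS1. The alternatives for the ratios and list genes were chosen after seeing the data, and the log2 difference of MFA2/MFA1 without a single sample ran from -0.025 to 0.17 in the deletion, -0.012 to 0.32 in overexpressing cells and -0.31 to 0.020 between the control strains.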
